A study of Mus musculus with 9 samples.

Results

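DNA replication needs a set of proteins that are made mostly when a cell enters S phase, and 41 genes for such proteins are described here, chosen by symbol from 23393 gene rows. The rule is a list of symbols and holds no threshold on a measured value, but the list was chosen with earlier results of these data known. All 41 passed the filter on low counts and were among the 12219 genes tested. No library held fewer than 19 counts of any of them (Gins1 had the fewest). The genes are grouped by role into 10 for origin licensing, 5 for helicase activation, 6 for primase and polymerases, 7 for the sliding clamp, its loader and the single-strand binding protein RPA, 2 for flap removal and ligation, 2 for chromatin assembly, 5 for nucleotide supply and 4 regulators of the passage from G1 to S.

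Replication origins are licensed in G1, when the origin recognition complex, Cdc6 and Cdt1 load the ring of Mcm2 to Mcm7 onto DNA. In S phase the kinase Cdc7 and the factors Mcm10, Cdc45 and GINS turn the ring into an active helicase, and primase, the polymerases, the clamp and the ligase copy the DNA behind it. Many of these genes are transcribed under E2F factors at the G1/S boundary, whereas genes for mitosis are transcribed later, in G2.

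RNA sequencing was run on Tregs from mouse spleen, which are CD4 T cells defined by the transcription factor Foxp3 and known for holding back other immune cells. The series is about Tregs with ST2, the interleukin-33 receptor encoded by Il1rl1, in the inflamed and scarring kidney after ischemia. Its 9 samples were 3 of genotype ST2KO, 3 wild-type samples sorted as high for ST2 (ST2-high) and 3 wild-type samples sorted as low for it (ST2-low). The labels give no strain, age, sex or treatment, do not say how the knockout was made or how cells were gated, and do not say whether the 3 samples of a group came from separate animals, so p-values measure only how these samples spread, and that spread may be technical. All samples were of spleen, not kidney.

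Total counts lay between 11659659 and 43406680 in ST2KO, between 16223242 and 29320699 in ST2-high and between 19084575 and 20098456 in ST2-low, and levels are given as CPM with TMM scaling. Il1rl1 averaged 67.6 CPM in ST2KO, 494.7 CPM in ST2-high and 2.62 CPM in ST2-low, so it followed the wild-type sort, while a count per gene does not show whether the deleted part of the gene is read. Foxp3 averaged 430.2 CPM in ST2KO, 567.7 CPM in ST2-high and 461.6 CPM in ST2-low. The 7 Treg markers, Foxp3 among them, summed to means of 3826 CPM in ST2KO, 5575 CPM in ST2-high and 4837 CPM in ST2-low. In the tests below, 2 were higher and 2 lower in ST2KO than ST2-low (28.6% each, against 33% and 29.3% of all tested genes). In ST2KO against ST2-high, 1 was higher and 4 were lower (14.3% and 57.1%, against 31.9% and 32.6%). In ST2-high against ST2-low, 4 were higher and 0 lower (57.1% higher, against 15.3%). Markers of other cells were low but not absent: the summed level of 11 myeloid and dendritic markers was 45.4 to 60.01 CPM in ST2KO, 146.0 to 147.4 CPM in ST2-high and 155.8 to 202.6 CPM in ST2-low, and that of 8 B cell markers was 88.0 to 108.2 CPM, 117.9 to 143.8 CPM and 102.8 to 148.8 CPM in the same groups. Of 5 plasma cell markers the sum was 151.3 to 170.5 CPM, 253.3 to 305.2 CPM and 172.8 to 227.1 CPM, of neutrophil markers 2.37 to 3.45 CPM, 8.58 to 12.5 CPM and 5.88 to 24.0 CPM, and of 7 NK and CD8 T cell markers 28.8 to 33.9 CPM, 27.8 to 29.6 CPM and 34.4 to 37.4 CPM in ST2KO, ST2-high and ST2-low. Among the plasma cell markers Irf4, which activated Tregs also express, was the only 1 called between ST2-high and ST2-low, at 174.4 to 185.2 CPM in ST2-high and 90.1 to 96.8 CPM in ST2-low. The erythroid markers summed to 96.8 to 105.6 CPM in ST2KO, 139.8 to 159.0 CPM in ST2-high and 162.6 to 168.8 CPM in ST2-low. Most of that was Tfrc, the transferrin receptor that dividing T cells also make, at 81.9 to 90.3 CPM in ST2KO, 131.6 to 152.4 CPM in ST2-high and 154.0 to 162.2 CPM in ST2-low, and the globin gene Hba-a1 was at 0 in every library. In bulk RNA, fewer cells in S phase and less of a transcript per cell cannot be told apart.

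Per kilobase of exon, Pcna, the sliding clamp that tethers polymerases to DNA, was the most abundant of the 41 transcripts, at 74.9 CPM per kilobase in ST2KO, 115.1 in ST2-high and 121.1 in ST2-low. Cdt1, the factor that brings the Mcm ring to origins, stood at 17.4 CPM per kilobase in ST2KO, 45.7 in ST2-high and 45.5 in ST2-low, second to Pcna in ST2-low. Mcm4 and Mcm6 came next in ST2-low, at 36.2 and 32.1 CPM per kilobase. The lowest were Mcm10, at 0.597 CPM per kilobase in ST2KO, 1.31 in ST2-high and 0.810 in ST2-low, and Gins2, at 0.431, 0.977 and 0.596 in the same groups. The order of the first 2 genes was the same per kilobase of coding sequence, while Gins2, with its long untranslated part, moved to rank 34.

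Promoter windows of 300 bases, from 250 bases before to 50 after the start site (RefSeq, GRCm38.p6), were found for 34 of the 41 genes. They were searched on both strands for 4 spellings of the site known for E2F factors: TTTCCCGC, TTTCGCGC, TTTGCCGC and TTTGGCGC. At least 1 of these words was present in 12 of the 34 genes (35.3%), in 16 of 46 other replication genes (34.8%), in 2 of 26 mitosis genes (7.69%) and in 437 of 9073 tested genes with a window (4.82%); of all windows of the same length, 2.26% held one. A match is a run of letters and not a measured binding site. Windows follow the annotated starts, and that of E2f1 reads as coding sequence, so a word near another start would be missed. The 12 genes were Orc1, Cdc6, Cdt1, Mcm3, Mcm5, Mcm6, Mcm7, Pola1, Pold1, Rfc3, Lig1 and E2f2.

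Stretches are shown for some genes with an E2F word, 5′ to 3′ on the strand of the gene, with the words in capitals. Not every gene shown was called in each comparison below. Rrm2, Tk1 and Pcna, also described below, hold no such word in their windows. The stretch of Orc1 lies at chr4:108579394-108579453 on the plus strand, that of Mcm6 at chr1:128359766-128359825 on the minus strand, that of Mcm5 at chr8:75109329-75109388 on the plus strand, that of Cdc6 at chr11:98907986-98908045 on the plus strand, that of Pola1 at chrX:93632261-93632320 on the minus strand and that of Mcm7 at chr5:138172014-138172073 on the minus strand, all before the start site. In Mcm6 and Mcm5 a pair of words on opposite strands overlap. Other words are not shown: counted in bases from the start site, they lie at -47 in Mcm6 and 16 in Mcm7. Those of Rfc3, at -10 and 0, and of Lig1, at 26, are not shown either.
Orc1: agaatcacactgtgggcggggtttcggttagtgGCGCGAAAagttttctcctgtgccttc
Mcm6: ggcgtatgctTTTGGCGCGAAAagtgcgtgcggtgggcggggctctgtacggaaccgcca
Mcm5: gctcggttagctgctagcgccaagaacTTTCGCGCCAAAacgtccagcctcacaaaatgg
Cdc6: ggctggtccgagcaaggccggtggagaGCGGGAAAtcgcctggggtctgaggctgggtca
Pola1: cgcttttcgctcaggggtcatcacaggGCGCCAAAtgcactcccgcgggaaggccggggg
Mcm7: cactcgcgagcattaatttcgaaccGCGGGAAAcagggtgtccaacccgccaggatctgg

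In Mcm3, Cdt1, E2f2 and Pold1 the words lie within 50 bases after the start site, in windows of 30 bases at chr1:20820266-20820295 (minus strand), chr8:122568034-122568063 (plus strand), chr4:136172294-136172323 (plus strand) and chr7:44548766-44548795 (minus strand). Mcm3 holds 2 words there, 1 on each strand. Of these genes, Cdt1 and E2f2 moved apart in ST2KO, as described below.
Mcm3: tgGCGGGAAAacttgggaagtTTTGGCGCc
Cdt1: cgggaactaccttTTTGGCGCcatggcgca
E2f2: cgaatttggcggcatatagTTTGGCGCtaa
Pold1: cacggcggcgtatcttgtgGCGGGAAAagc

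**Figure D1:**
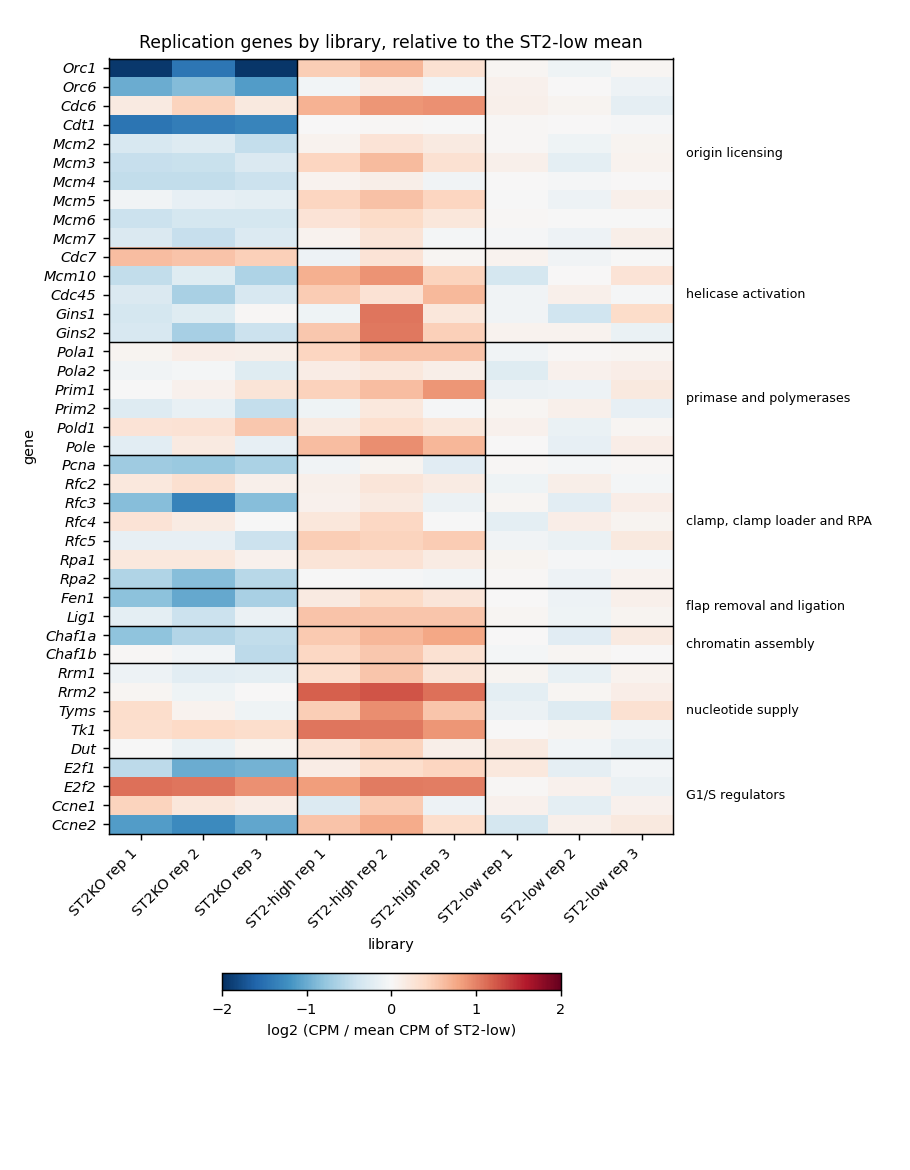
Level of each of the 41 genes in each of the 9 libraries, as log2 of its CPM over the mean CPM of ST2-low (colour), with genes in rows by role and libraries in columns by group. Orc1 and Cdt1 are lowest in the ST2KO libraries, and Rrm2 and Tk1 are highest in the ST2-high libraries.

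Wild-type Tregs rich in the receptor were first set against wild-type Tregs poor in it. ST2-high had more transcript than ST2-low for 25 of the 41 genes and less for 0 (edgeR's quasi-likelihood test, Benjamini-Hochberg adjusted p under 0.05). Over all tested genes 26.1% were called, 15.3% higher and 10.8% lower. At an unadjusted p under 0.05 the counts were 26 higher and 0 lower, and DESeq2's Wald test and limma-voom called 0 lower as well. All 5 nucleotide supply genes rose, as did both genes of flap removal and ligation and both of chromatin assembly. The median log2 fold change of the 41 genes was 0.39, against -0.002 for all tested genes. In 25 genes every ST2-high library lay above every ST2-low library, as in 20.5% of all tested genes, and 10 of the called genes were at least 1.5-fold higher, as in 6.28% of all tested genes.

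The largest rise was that of Rrm2, the small subunit of ribonucleotide reductase that makes deoxyribonucleotides. Rrm2 stood at 45.4, 47.2 and 42.5 CPM in ST2-high and at 17.2, 20.3 and 21.7 CPM in ST2-low. Every ST2-high library was far above every ST2-low library, 2.28-fold on average (log2 fold change 1.19 ± 0.09 SE, n = 3 each, edgeR adjusted p = 3.51e-12). Tk1, the thymidine kinase that salvages thymidine, stood at 10.6, 10.5 and 9.30 CPM in ST2-high, against 5.08, 5.24 and 4.82 CPM in ST2-low, a 2.02-fold rise. Tyms, which makes thymidylate, rose 1.58-fold, Rrm1, the large reductase subunit, 1.31-fold, and Dut, the dUTPase that keeps uracil out of DNA, 1.23-fold. The Dut groups overlapped, at 18.8 to 23.5 CPM in ST2-high and 15.6 to 19.6 CPM in ST2-low, and its call was lost in 8 of 16 alternative settings, among them leaving out ST2-high replicate 2 (adjusted p = 0.188).

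Among G1/S regulators, E2f2, a transcription factor of the E2F family, rose in ST2-high. E2f2 was at 29.6, 34.4 and 33.8 CPM in ST2-high, against 16.97, 17.7 and 15.4 CPM in ST2-low. The groups stood well apart, 1.95-fold (log2 fold change 0.96 ± 0.09 SE, edgeR adjusted p = 7.66e-10). Ccne2, a cyclin that activates Cdk2 at the G1/S boundary, rose 1.48-fold (adjusted p = 0.0014). E2f1 and Ccne1 did not pass the test, with log2 fold changes of 0.31 and 0.07.

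Licensing genes divided into 5 that rose and 5 that did not pass. Cdc6, the ATPase that loads the ring with Cdt1, rose 1.77-fold, Orc1, the ATPase subunit of the origin recognition complex, 1.41-fold, Mcm5 1.40-fold, Mcm3 1.37-fold and Mcm6 1.23-fold. Mcm5 had the smallest adjusted p of the role (2.16e-06, edgeR), at 64.1, 71.3 and 63.7 CPM in ST2-high against 47.3, 43.97 and 50.9 CPM in ST2-low. The other subunits of the ring, Mcm2, Mcm4 and Mcm7, had log2 fold changes of 0.17, 0.04 and 0.10 and did not pass, although the 6 proteins work in 1 ring; Mcm2 passed when ST2-high replicate 1 was left out (adjusted p = 0.0304). Cdt1 was nearly level, at 99.98, 100.8 and 99.4 CPM in ST2-high and 100.7, 99.96 and 97.99 CPM in ST2-low (log2 fold change 0.01 ± 0.06 SE, edgeR adjusted p = 0.947). The Orc6 libraries also overlapped, with 16.1 to 18.6 CPM in ST2-high and 15.7 to 17.8 CPM in ST2-low.

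Of the helicase activation genes, Mcm10, Cdc45 and Gins2 rose 1.62-fold, 1.40-fold and 1.63-fold. Mcm10, a scaffold of the active helicase, had the smallest adjusted p of them (0.00718, edgeR), at 6.56, 7.48 and 5.47 CPM in ST2-high and 3.13, 4.03 and 4.87 CPM in ST2-low. These are low levels, and each call was lost when some single library was left out: Mcm10 without ST2-low replicate 1 (adjusted p = 0.06), Cdc45 without ST2-high replicate 3 (adjusted p = 0.0526) and Gins2 without ST2-high replicate 2 or any of the ST2-low replicates (adjusted p between 0.0515 and 0.184). Cdc7, the kinase that fires licensed origins, and Gins1 did not pass.

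The catalytic subunits of the polymerases rose. Pole, the catalytic subunit of the leading-strand polymerase epsilon, was at 29.2, 35.9 and 30.2 CPM in ST2-high and at 19.02, 16.99 and 20.9 CPM in ST2-low. The groups did not overlap and differed 1.67-fold (log2 fold change 0.74 ± 0.11 SE, edgeR adjusted p = 2.96e-06). Prim1, the catalytic subunit of primase, rose 1.57-fold, Pola1, that of polymerase alpha, 1.43-fold, and Pold1, that of polymerase delta, 1.18-fold. The call of Pold1 was lost without ST2-high replicate 2 (adjusted p = 0.109) and without ST2-low replicate 2 (adjusted p = 0.171). It was also lost with DESeq2's Wald test (adjusted p = 0.066). Their accessory partners Pola2 and Prim2 did not pass, with log2 fold changes of 0.16 and 0.04.

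The clamp, its loader and RPA had the lowest median log2 fold change of the roles, 0.17. Pcna was at 175.7, 190.6 and 157.8 CPM in ST2-high and at 186.5, 178.2 and 186.8 CPM in ST2-low, with overlapping groups (log2 fold change -0.07 ± 0.06 SE, edgeR adjusted p = 0.393). Rpa1, the large subunit of RPA, rose 1.18-fold, at 135.8, 138.2 and 126.8 CPM in ST2-high against 118.2, 111.6 and 110.9 CPM in ST2-low (edgeR adjusted p = 0.0013). Rfc5, a subunit of the clamp loader, rose 1.39-fold, and Rfc2, Rfc3, Rfc4 and Rpa2 did not pass. Lig1, the ligase that joins lagging-strand fragments, was at 42.3, 41.6 and 41.5 CPM in ST2-high and at 29.1, 26.6 and 29.4 CPM in ST2-low, 1.47-fold higher with very tight ST2-high libraries (edgeR adjusted p = 2.82e-06). Chaf1a, the large subunit of the chromatin assembly factor that places histones on new DNA, was at 12.9, 14.1 and 15.3 CPM in ST2-high and at 9.02, 7.67 and 10.1 CPM in ST2-low, again without overlap (1.57-fold, edgeR adjusted p = 0.000432). The smaller rises of Fen1, the flap endonuclease, at 1.20-fold, and Chaf1b, at 1.34-fold, were lost without ST2-high replicate 2 (adjusted p = 0.107 for each) and without ST2-low replicates 1 or 2 (0.0503 and 0.117 for Fen1, 0.0809 and 0.055 for Chaf1b); Chaf1b was also lost without ST2-high replicate 1 (0.069) or ST2-low replicate 3 (0.0685).

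Edge cases of the counting touch some of these genes. Strand was not stated for the counts. Annotated exons of other genes cover 78.8% of the exon bases of Fen1 (Gm10143, antisense), 67.3% of those of Gins2 (Gse1) and 52.5% of those of Chaf1a (Ubxn6). Gse1 and Ubxn6 have rows in the counts, while Gm10143 has none. The values of Fen1, Gins2 and Chaf1a are therefore uncertain. Smaller overlaps touch other genes, among them Ccne2 (17.4%, Ints8), Rfc2 (15.1%, Lat2), Rfc4 (12.7%, Eif4a2), Orc1 (10.8%, Gm12743) and Rfc5 (10.7%, Wsb2). Pcna and Tyms have processed pseudogenes in the annotation.

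Tregs labelled as lacking the receptor (ST2KO) were set against ST2-low, the wild-type Tregs with little of it. Here the genes did not move as one: 17 of the 41 fell, 6 rose and 18 did not pass edgeR's test, where 62.3% of all tested genes were called, 29.3% lower and 33% higher. Of the licensing genes 8 of 10 were lower and 0 higher, and both genes of flap removal and ligation were lower, while 1 of 6 polymerase genes and 1 of 5 nucleotide supply genes were called, both higher. The median log2 fold change was -0.23 over the 41 genes, -0.39 over the licensing genes and 0.05 over all tested genes. At least 1.5-fold changes were 10 falls and 1 rise, against 13.6% and 16% of all tested genes. ST2KO libraries lay wholly below ST2-low in 19 genes and wholly above in 8, where these shares were 31.2% and 36% of all tested genes.

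Cdt1 had the smallest adjusted p. It stood at 36.1, 38.1 and 39.9 CPM in ST2KO, against 100.7, 99.96 and 97.99 CPM in ST2-low. Each ST2KO library held well under the lowest ST2-low library, 2.64-fold lower on average (log2 fold change -1.40 ± 0.06 SE, n = 3 each, edgeR adjusted p = 8.62e-19). Orc1 fell furthest, to 2.996, 4.15 and 2.946 CPM in ST2KO, against 11.7, 10.8 and 11.7 CPM in ST2-low, 3.43-fold lower (log2 fold change -1.78 ± 0.15 SE, edgeR adjusted p = 1.86e-11). Orc6, another subunit of the origin recognition complex, fell 1.98-fold. Cdc6 did not follow them: it was at 7.40, 8.88 and 7.45 CPM in ST2KO and at 7.02, 6.79 and 5.78 CPM in ST2-low, and did not pass (adjusted p = 0.102).

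The Mcm ring was lower in 5 of its 6 subunits. Mcm4 was at 92.2, 92.0 and 96.9 CPM in ST2KO and 130.8, 128.4 and 130.7 CPM in ST2-low, and Mcm6 at 103.6, 110.4 and 110.3 CPM in ST2KO and 141.9, 139.2 and 139.8 CPM in ST2-low. Those groups were widely separated, 1.39-fold and 1.30-fold lower (edgeR adjusted p = 9.49e-09 and 3.11e-07). Mcm2 was at 48.0, 50.1 and 42.9 CPM in ST2KO against 61.2, 56.5 and 62.2 CPM in ST2-low. Mcm3 was at 44.3, 44.7 and 49.8 CPM in ST2KO against 65.3, 53.5 and 64.2 CPM in ST2-low, and Mcm7 at 51.0, 44.9 and 51.2 CPM in ST2KO against 61.1, 57.7 and 67.0 CPM in ST2-low. None of these 3 genes overlapped between the groups, and they fell by between 1.26-fold and 1.33-fold. Mcm5 stood at 45.3, 42.1 and 41.2 CPM in ST2KO and 47.3, 43.97 and 50.9 CPM in ST2-low, with overlap, and did not pass (adjusted p = 0.0929), although it passed in 4 of 16 alternative settings, among them without ST2-low replicate 2 (adjusted p = 0.0178).

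**Figure D2:**
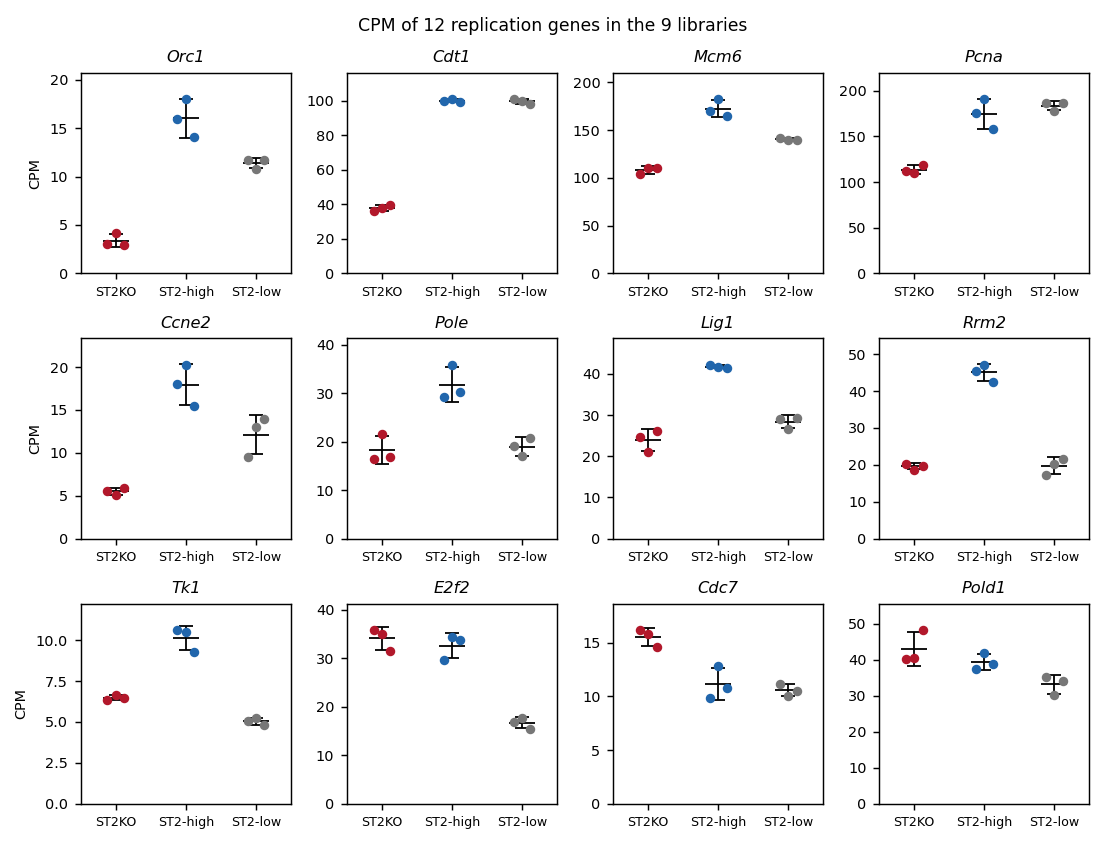
CPM (vertical axis, from 0) of 12 replication genes in the 3 libraries of each group (points), with the mean and SD (bars). Orc1, Cdt1, Mcm6, Pcna and Ccne2 are lowest in ST2KO, Rrm2 is at 18.6 to 20.3 CPM in ST2KO and 17.2 to 21.7 CPM in ST2-low, and Cdc7 is highest in ST2KO.

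In helicase activation the only rise was that of Cdc7, at 16.2, 15.8 and 14.6 CPM in ST2KO against 11.1, 10.04 and 10.6 CPM in ST2-low. The groups did not overlap and differed 1.48-fold (log2 fold change 0.56 ± 0.12 SE, edgeR adjusted p = 0.000127). Dbf4, the subunit that activates Cdc7, moved the other way, as given below with the other replication genes. Cdc45, a core part of the helicase, fell 1.31-fold, a call lost without ST2KO replicate 2 (adjusted p = 0.133) and without ST2-low replicate 2 (adjusted p = 0.067). Mcm10, Gins1 and Gins2 did not pass, with log2 fold changes of -0.44, -0.23 and -0.44, and Mcm10 passed without ST2-low replicate 1 (adjusted p = 0.0236).

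Of the 6 primase and polymerase genes, Pold1 alone passed, at 40.1, 40.4 and 48.3 CPM in ST2KO against 35.1, 30.2 and 34.2 CPM in ST2-low. Its groups did not overlap, with a 1.28-fold rise (log2 fold change 0.36 ± 0.08 SE, edgeR adjusted p = 0.000314). Pole was at 16.4, 21.5 and 16.9 CPM in ST2KO and at 19.02, 16.99 and 20.9 CPM in ST2-low, and Pola1 at 29.5, 31.2 and 30.8 CPM in ST2KO and 27.02, 28.9 and 29.2 CPM in ST2-low, and neither passed. Prim2 was the least settled of the role, with a log2 fold change of -0.27 and an adjusted p of 0.055; it passed in 7 of 16 alternative settings, among them without ST2KO replicate 2 (0.0404) and without ST2-low replicate 3 (0.0291).

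The clamp and its partners divided by gene. Pcna was at 112.0, 109.9 and 119.1 CPM in ST2KO against 186.5, 178.2 and 186.8 CPM in ST2-low. All ST2KO libraries were far below ST2-low, 1.62-fold (log2 fold change -0.70 ± 0.06 SE, edgeR adjusted p = 1.37e-11). Rfc3, a clamp loader subunit, fell 1.97-fold and Rpa2, the middle subunit of RPA, 1.59-fold. Rpa1, the partner of Rpa2, instead rose 1.13-fold, at 131.2, 131.5 and 120.9 CPM in ST2KO against 118.2, 111.6 and 110.9 CPM in ST2-low (edgeR adjusted p = 0.00636, and 0.0729 without ST2-low replicate 2). Rfc2 rose 1.16-fold, at 24.8, 26.6 and 22.8 CPM in ST2KO against 20.05, 23.1 and 20.9 CPM in ST2-low, with overlapping libraries (edgeR adjusted p = 0.0361). The Rfc2 call was lost in 7 of 16 settings, among them without ST2KO replicates 1 or 2 (adjusted p = 0.0803 and 0.154) and without ST2-low replicates 1 or 3 (0.147 and 0.0989). Rfc5 did not pass (adjusted p = 0.0833), but did without ST2-low replicate 2 (0.0307).

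Behind the fork, Fen1 was at 19.3, 16.8 and 21.7 CPM in ST2KO and at 34.2, 31.7 and 36.4 CPM in ST2-low. It was lower in every ST2KO library, by 1.78-fold (log2 fold change -0.83 ± 0.09 SE, edgeR adjusted p = 2.35e-09). Lig1 fell less, 1.19-fold, a call lost without ST2KO replicate 2 (adjusted p = 0.11) and without ST2-low replicate 3 (0.0505). Chaf1a was at 5.10, 5.96 and 6.38 CPM in ST2KO and at 9.02, 7.67 and 10.1 CPM in ST2-low, 1.58-fold lower (edgeR adjusted p = 0.000278), and Chaf1b did not pass.

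Of the 5 nucleotide supply genes, Tk1 alone passed. Rrm2 was at 20.3, 18.6 and 19.8 CPM in ST2KO and at 17.2, 20.3 and 21.7 CPM in ST2-low, a log2 fold change of -0.01 ± 0.09 SE (edgeR adjusted p = 0.939). Tk1 rose 1.28-fold, at 6.34, 6.66 and 6.46 CPM in ST2KO against 5.08, 5.24 and 4.82 CPM in ST2-low (edgeR adjusted p = 0.0389). The Tk1 groups did not overlap, but its call was lost in 11 of 16 settings, including the omission of any single library of either group (adjusted p between 0.0572 and 0.102). Rrm1, Tyms and Dut did not pass, with log2 fold changes of -0.16, 0.16 and -0.02; Rrm1 passed in 7 of 16 settings, among them without ST2-low replicate 2 (adjusted p = 0.00573).

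The regulators moved in opposite directions. E2f2 was at 35.9, 35.1 and 31.4 CPM in ST2KO against 16.97, 17.7 and 15.4 CPM in ST2-low, 2.06-fold higher and without overlap (log2 fold change 1.04 ± 0.09 SE, edgeR adjusted p = 1.77e-11). Ccne2 fell 2.21-fold, to 5.60, 5.03 and 5.89 CPM in ST2KO, against 9.51, 12.96 and 13.9 CPM in ST2-low (edgeR adjusted p = 7.91e-08). E2f1 fell 1.68-fold, to 3.495, 2.51 and 2.62 CPM in ST2KO, against 5.84, 4.41 and 4.82 CPM in ST2-low (edgeR adjusted p = 0.00146). Thus E2f1, known as an activator of S phase genes, and E2f2, which belongs to the same activator class, stood on opposite sides of ST2-low, and Ccne1 did not pass.

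Markers of other cells moved in the same comparison, where 29.3% of all tested genes were lower and 33% higher. In ST2KO, 9 of 11 myeloid and dendritic markers (81.8%) and 5 of 8 B cell markers (62.5%) were lower than in ST2-low. Of either list 0 was higher, and no marker of these lists was at 0. Of the tested plasma cell and neutrophil markers 3 of 4 in each list were lower and 0 higher, and of the 4 tested erythroid markers Tfrc was lower and Gata1 higher. The myeloid gene Csf1r was at a mean of 5.84 CPM in ST2KO, against 27.5 CPM in ST2-low. The part of these markers in the falls of the replication genes was not tested. In ST2-high against ST2-low, 4 of 11 myeloid and dendritic markers were lower and 1 higher, and 1 of 8 B cell markers was higher. Over all tested genes 10.8% were lower and 15.3% higher there, and the part of the markers in the rises was not tested.

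The comparison of ST2KO with ST2-high set the knockout label against the wild-type cells that carry the receptor, and it shares its libraries with the comparisons above. ST2KO Tregs had less transcript of 33 of the 41 genes and more of 1, Cdc7, where 64.5% of all tested genes were called, 32.6% lower and 31.9% higher. All 10 licensing genes, all 5 nucleotide supply genes, both of flap removal and ligation and both of chromatin assembly fell. The median log2 fold change was -0.62, against 0.02 for all tested genes, and 21 falls were at least 1.5-fold (16.2% of all tested genes). In 33 genes every ST2KO library lay below every ST2-high library (33.3% of all tested genes).

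Orc1 showed the largest difference, at 2.996, 4.15 and 2.946 CPM in ST2KO against 15.97, 17.97 and 14.04 CPM in ST2-high, 4.83-fold lower (log2 fold change -2.27 ± 0.15 SE, edgeR adjusted p = 3.26e-14). Cdt1, at 36.1, 38.1 and 39.9 CPM in ST2KO and 99.98, 100.8 and 99.4 CPM in ST2-high, was 2.65-fold lower (edgeR adjusted p = 6.01e-19), nearly the difference it had from ST2-low. All 6 subunits of the ring fell. Mcm3 differed most, 1.83-fold, at 44.3, 44.7 and 49.8 CPM in ST2KO and 81.8, 94.3 and 75.5 CPM in ST2-high, and Mcm7 least, 1.35-fold, at 51.0, 44.9 and 51.2 CPM in ST2KO and 64.8, 74.1 and 60.5 CPM in ST2-high. The others lay between them. Mcm2 was at 48.0, 50.1 and 42.9 CPM in ST2KO and 62.8, 72.6 and 68.1 CPM in ST2-high, 1.43-fold lower. Mcm4 was at 92.2, 92.0 and 96.9 CPM in ST2KO and 136.3, 141.1 and 124.1 CPM in ST2-high, also 1.43-fold lower, and Mcm6 at 103.6, 110.4 and 110.3 CPM in ST2KO and 169.8, 182.1 and 164.9 CPM in ST2-high, 1.60-fold lower. Mcm5 fell 1.54-fold in ST2KO against ST2-high. No subunit overlapped between these groups.

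Cdc45 was at 6.01, 4.68 and 5.89 CPM in ST2KO and at 10.4, 8.99 and 11.5 CPM in ST2-high, 1.84-fold lower without overlap (edgeR adjusted p = 6.27e-06). Mcm10 and Gins2 fell 2.20-fold and 2.21-fold. Against them, Cdc7 was at 16.2, 15.8 and 14.6 CPM in ST2KO and at 9.83, 12.8 and 10.8 CPM in ST2-high, 1.41-fold higher (edgeR adjusted p = 0.000476).

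Pole was at 16.4, 21.5 and 16.9 CPM in ST2KO and at 29.2, 35.9 and 30.2 CPM in ST2-high, 1.75-fold lower (edgeR adjusted p = 1.38e-07). Pcna was at 112.0, 109.9 and 119.1 CPM in ST2KO and at 175.7, 190.6 and 157.8 CPM in ST2-high, 1.54-fold lower (edgeR adjusted p = 1.39e-10). Both genes were lower in every ST2KO library. Fen1 was at 19.3, 16.8 and 21.7 CPM in ST2KO and at 38.7, 44.2 and 40.2 CPM in ST2-high, 2.14-fold lower (edgeR adjusted p = 4.29e-12). Chaf1a was at 5.10, 5.96 and 6.38 CPM in ST2KO and at 12.9, 14.1 and 15.3 CPM in ST2-high, 2.47-fold lower (edgeR adjusted p = 2.35e-09). Neither of these genes overlapped between the groups. The smallest of the called falls were those of Dut, Prim2 and Pola2, with log2 fold changes of -0.32, -0.31 and -0.26, and each was lost without some library: ST2-high replicate 2 for Dut (adjusted p = 0.0663), ST2KO replicates 1 or 3 or ST2-high replicate 2 for Prim2 (0.0614, 0.107 and 0.164), and ST2KO replicate 3 or ST2-high replicate 2 for Pola2 (0.0823 and 0.0569). Tyms, 1.42-fold lower, was also lost without ST2-high replicate 2 (0.0556). With upper quartile scaling the calls of Prim2 and Pola2 were lost as well (edgeR adjusted p = 0.1 and 0.104).

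Rrm2 was at 20.3, 18.6 and 19.8 CPM in ST2KO and at 45.4, 47.2 and 42.5 CPM in ST2-high, 2.29-fold lower (log2 fold change -1.20 ± 0.09 SE, edgeR adjusted p = 3.23e-13). Ccne2 was at 5.60, 5.03 and 5.89 CPM in ST2KO and at 18.1, 20.3 and 15.5 CPM in ST2-high, 3.27-fold lower (edgeR adjusted p = 1.1e-11). The groups of either gene were far apart. E2f2, Pold1, Rpa1, Rfc2, Rfc4, Gins1 and Ccne1 did not pass, with E2f2 at 31.4 to 35.9 CPM in ST2KO and 29.6 to 34.4 CPM in ST2-high. Of the myeloid and dendritic markers 10 of 11 and of the B cell markers 6 of 8 were lower in ST2KO than in ST2-high. So were 4 of 4 tested plasma cell markers and 2 of 4 tested neutrophil markers, and 0 of these lists was higher. Over all tested genes 32.6% were lower and 31.9% higher. The part of these markers in the falls of the replication genes against ST2-high was not tested.

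**Figure D3:**
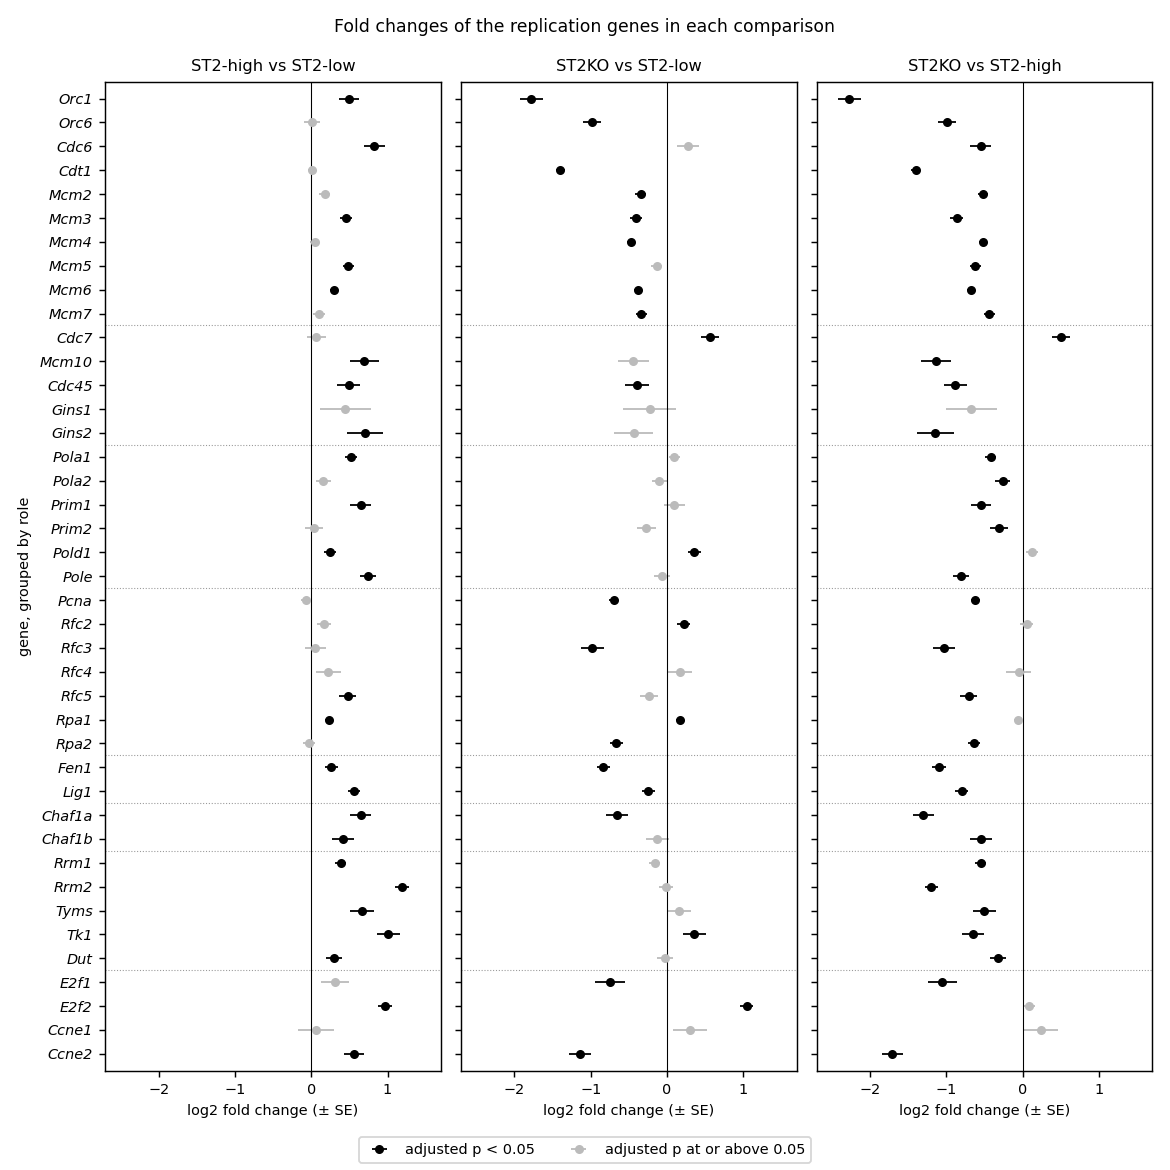
Log2 fold change (horizontal axis) with its SE for the 41 genes (rows, by role) in ST2-high against ST2-low, ST2KO against ST2-low and ST2KO against ST2-high, with black points for an edgeR adjusted p under 0.05. Most points lie right of 0 in the first panel and left of 0 in the last. In the middle panel the licensing genes other than Cdc6 lie left of 0. There 12 of the 41 genes, E2f2 and Cdc7 among them, lie right of 0.

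Of 56 other genes that act in replication, 18 rose in ST2-high against ST2-low, 1 fell and 37 did not pass. Their median log2 fold change was 0.13. The share of rises was 32.1%, against 61% among the 41 and 15.3% of all tested genes. Both lists were chosen with earlier results of these data known, so this difference may come from how genes were assigned to them. Uhrf1, which reads hemimethylated DNA behind the fork, was at 44.2, 47.1 and 45.8 CPM in ST2-high and at 25.9, 21.7 and 25.6 CPM in ST2-low (1.87-fold, edgeR adjusted p = 4.5e-10). E2f8, a repressor of the E2F family, rose 2.45-fold, at 9.97, 10.8 and 11.6 CPM in ST2-high and 3.67, 4.52 and 4.92 CPM in ST2-low (edgeR adjusted p = 2.85e-07). Dnmt1, the maintenance DNA methyltransferase, rose 1.30-fold, at 165.3, 169.2 and 159.9 CPM in ST2-high and 123.3, 127.6 and 130.5 CPM in ST2-low (edgeR adjusted p = 1.05e-06). None of these 3 genes overlapped between the groups. Pole4, a small subunit of polymerase epsilon, was the gene that fell, 1.16-fold, at 35.7, 39.0 and 32.3 CPM in ST2-high and 39.7, 43.5 and 40.8 CPM in ST2-low (edgeR adjusted p = 0.0396), and 0 of the 56 were called lower without ST2-low replicate 2, while 4 were with DESeq2 size factors.

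In ST2KO against ST2-low, 12 of the 56 rose and 11 fell (21.4% and 19.6%, against 33% and 29.3% of all tested genes). Dbf4, the activating subunit of Cdc7, was at 32.5, 27.2 and 33.3 CPM in ST2KO and at 79.5, 75.5 and 70.7 CPM in ST2-low. It fell 2.42-fold while Cdc7 rose (edgeR adjusted p = 2.82e-14). Orc5, a subunit of the same origin recognition complex as Orc1 and Orc6, went the other way from them, at 33.7, 35.2 and 33.1 CPM in ST2KO against 13.5, 13.8 and 15.2 CPM in ST2-low (2.39-fold higher, edgeR adjusted p = 3.4e-13). Rrm2b, the reductase subunit known to serve cells outside S phase, was at 27.5, 27.2 and 26.7 CPM in ST2KO against 14.97, 12.03 and 11.51 CPM in ST2-low (2.12-fold higher, edgeR adjusted p = 1.89e-10), where Rrm2 had nearly the same level in both groups. The other rises were those of Orc2, Orc3, Gins3, Mcmbp, Pold3, Rfc1, Dnmt1, Dck, E2f6 and Atr, and the other falls those of Gmnn, Ticrr, Topbp1, Donson, Pole4, Atad5, Asf1a, Rbbp4, Uhrf1 and Clspn. In ST2KO against ST2-high 9 rose and 20 fell (16.1% and 35.7%, against 31.9% and 32.6% of all tested genes). Orc5 was at 33.7, 35.2 and 33.1 CPM in ST2KO and at 13.8, 14.6 and 13.8 CPM in ST2-high, 2.42-fold higher (edgeR adjusted p = 2.16e-13). Uhrf1 was at 19.02, 19.8 and 21.4 CPM in ST2KO and at 44.2, 47.1 and 45.8 CPM in ST2-high, 2.29-fold lower (edgeR adjusted p = 1.44e-13). Dbf4 was at 32.5, 27.2 and 33.3 CPM in ST2KO and at 72.5, 70.7 and 60.3 CPM in ST2-high, 2.19-fold lower (edgeR adjusted p = 3.83e-13). The groups of all 3 were far apart. The other genes that rose there were Orc2, Orc3, Mcmbp, Rfc1, Rnaseh2c, Rrm2b, E2f6 and Atr.

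Mitosis genes gave a different order of the groups. Of 30 such genes, 29 rose in ST2-high against ST2-low (96.7%, against 15.3% of all tested genes). Their median log2 fold change was 1.29, above the 0.39 of the 41 replication genes. Mki67, the proliferation antigen made in cycling cells, was at 309.7, 302.3 and 309.4 CPM in ST2-high and at 114.7, 129.6 and 133.6 CPM in ST2-low. Every ST2-high library stood far above ST2-low, and the chromosome-untangling topoisomerase Top2a, at 183.7, 197.2 and 177.5 CPM in ST2-high and 79.4, 79.3 and 71.4 CPM in ST2-low, was 2.43-fold higher. Of the mitosis genes, 7 were higher and 3 lower in ST2KO than in ST2-low, and 20 did not pass (median 0.09). These shares were 23.3% higher and 10% lower, against 33% and 29.3% of all tested genes. Mki67 was at 132.4, 135.8 and 142.4 CPM in ST2KO, within 1.08-fold of ST2-low, and its adjusted p of 0.069 passed 0.05 in 3 of 16 settings, among them without ST2-low replicate 3 (0.0327). No rise was larger than 1.56-fold, and that of Ccnb2 was 1.41-fold. The falls were those of Top2a at 1.13-fold, Kif23 and Ndc80. Kif23, a motor of cytokinesis, was 1.72-fold lower, at 11.7, 9.29 and 10.9 CPM in ST2KO and 15.7, 20.02 and 19.8 CPM in ST2-low. Ndc80, a kinetochore protein, was 1.61-fold lower, at 8.53, 8.24 and 11.5 CPM in ST2KO and 13.5, 15.6 and 15.3 CPM in ST2-low. In ST2KO against ST2-high all 30 were lower, with a median of -1.11, where 32.6% of all tested genes were lower. There Top2a was at 68.4, 68.7 and 65.9 CPM in ST2KO and at 183.7, 197.2 and 177.5 CPM in ST2-high, 2.75-fold lower (edgeR adjusted p = 1.21e-19), and Mki67 also stood far below ST2-high.

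Summed over the genes, these differences can be seen in each library. The 41 replication genes summed to 1127, 1116 and 1127 CPM in ST2KO, 1639, 1785 and 1593 CPM in ST2-high, and 1408, 1350 and 1428 CPM in ST2-low. All 3 groups stood apart, with ST2KO lowest. The 10 licensing genes alone summed to 439, 444 and 450 CPM in ST2KO, 722, 785 and 699 CPM in ST2-high, and 645, 614 and 646 CPM in ST2-low. The 30 mitosis genes summed to 454, 440 and 457 CPM in ST2KO, 1031, 1085 and 985.1 CPM in ST2-high, and 434, 470 and 448 CPM in ST2-low, so ST2KO and ST2-low overlapped in mitosis transcript while they did not in that of the 41 genes. The 56 other replication genes summed to 1762, 1765 and 1728 CPM in ST2KO, 1923, 1958 and 1904 CPM in ST2-high, and 1750, 1771 and 1765 CPM in ST2-low, where ST2KO and ST2-low overlapped as well. Within the 41, some roles did not share the low sum of ST2KO. The 6 primase and polymerase genes summed to 126.8 to 135.8 CPM in ST2KO and 121.3 to 130.2 CPM in ST2-low. The 4 regulators summed to 43.1 to 48.9 CPM in ST2KO and 35.4 to 37.6 CPM in ST2-low. The 5 helicase activation genes summed to 26.4 to 28.2 CPM in ST2KO and 25.1 to 26.7 CPM in ST2-low. The 5 nucleotide supply genes overlapped too, at 101.8 to 110.2 CPM in ST2KO and 103.5 to 115.8 CPM in ST2-low. The mitosis sum over the replication sum was 0.403, 0.394 and 0.406 in ST2KO, 0.629, 0.608 and 0.618 in ST2-high, and 0.308, 0.348 and 0.314 in ST2-low. The sums weigh abundant genes most and carry no test here.

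**Figure D4:**
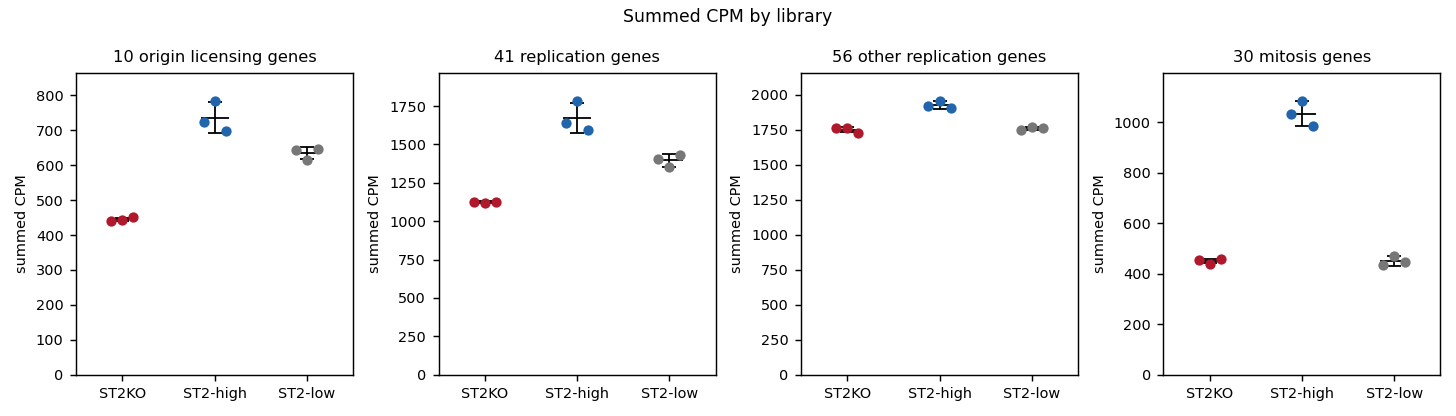
Summed CPM (vertical axis, from 0) of the 10 licensing genes, the 41 genes, the 56 other replication genes and the 30 mitosis genes in each library (points) with the group mean and SD (bars). ST2KO is lowest for the licensing genes and the 41 genes, while it spans 1728 to 1765 CPM beside 1750 to 1771 CPM in ST2-low for other replication genes, and 440 to 457 CPM beside 434 to 470 CPM for mitosis genes.

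Promoters of the mitosis genes also held other letters than those of the replication genes. The hexamer TTTGAA, the cell cycle homology region (CHR) known from late cell cycle promoters, was present on either strand in 19 of 26 mitosis genes with a window (73.1%), 5 of 34 of the replication genes (14.7%) and 14.3% of tested genes, and in 17.9% of all windows. The box CCAAT was present in 76.9%, 55.9% and 43.2% of the same gene groups and in 37.4% of all windows. The stretches of Mki67 (chr7:135716445-135716504, minus strand), Top2a (chr11:99024190-99024249, minus strand) and Kif11 (chr19:37376322-37376381, plus strand), a spindle motor, are shown for contrast with those of the replication genes above, with the CHR hexamer in capitals.
Mki67: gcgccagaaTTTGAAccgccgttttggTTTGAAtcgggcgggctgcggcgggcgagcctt
Top2a: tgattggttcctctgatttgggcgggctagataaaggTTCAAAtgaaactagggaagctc
Kif11: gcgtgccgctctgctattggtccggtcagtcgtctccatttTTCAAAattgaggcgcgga

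**Figure D5:**
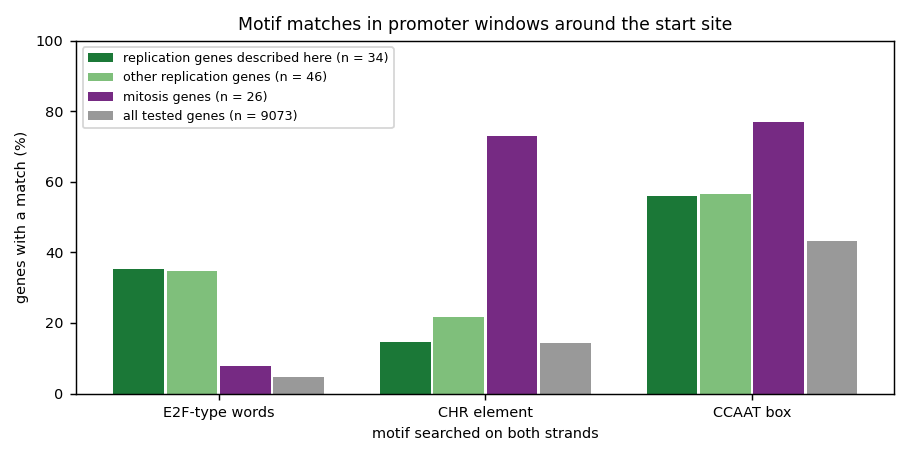
Share of genes (vertical axis, percent) whose promoter window holds an E2F word, a CHR hexamer or a CCAAT box, for the replication genes described here, other replication genes, mitosis genes and all tested genes (bars, with the number of genes in the legend). E2F words are most frequent in the first 2 groups and the CHR in mitosis genes.

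Calls of the genes with and without an E2F word stand side by side here, and a link between word and call was not tested. The 7 genes without a window are left out, and a word near another start, as may be for E2f1, would be missed. In ST2KO against ST2-low, 7 of the 12 genes with an E2F word fell and 2 rose. Of the 22 genes with a window but no such word, 8 fell and 3 rose, where 29.3% of all tested genes fell and 33% rose. In ST2-high against ST2-low, 9 of 12 and 13 of 22 rose, where 15.3% of all tested genes did. In ST2KO against ST2-high, 10 of 12 and 18 of 22 fell, where 32.6% of all tested genes did. Cdt1, which fell 2.64-fold in ST2KO against ST2-low, and E2f2, which rose 2.06-fold, both carry TTTGGCGC on the gene's own strand after the start site.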

How the data were processed

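RNA of 9 mouse spleen Treg samples was measured, 3 each of ST2KO, ST2-high and ST2-low, grouped by the genotype label. The deposited files hold raw whole-number counts per gene symbol, per the file headers and values; for the aligner, build, annotation, counting tool and strand setting, the entry is: not given in the sources used here. Of 23420 rows, 27 symbols turned into dates were left out (0.182% to 0.206% of counts). The Rn45s row took 12.1% to 16.9%. Counts were scaled with TMM, filtered with filterByExpr (minimum count 10, minimum total 15; 12219 genes left) and tested in R 4.3.3 with edgeR 4.0.16 and limma 3.58.1 by the quasi-likelihood test, with a coefficient for each group, all 9 samples in the fit and no covariate. Adjusted p-values (Benjamini-Hochberg, threshold 0.05) cover the 12219 genes. The SE is the log2 fold change over the square root of F. Samples of a group differed beyond counting noise (chi-square per gene 3.82 to 8.77, Rn45s left out; 7.71 and 8.77 for ST2-high replicate 3 against the others). The method was tested on simulated data. Over the comparisons, 38.1% to 43.6% of simulated 1.25-fold changes and 58.7% to 70.7% of simulated 1.5-fold changes were called. A gene that did not pass may therefore still differ. Depth limits the precision of low genes.

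The 41 genes, their roles and all lists were chosen with earlier results of these data known. Values per library are given for the gene of each role with the smallest adjusted p in each comparison, for genes called against the majority and for the Mcm ring; of other replication genes, for those against the majority and the 3 smallest adjusted p; of mitosis genes, Mki67 and 2 with the smallest adjusted p. As exceptions, other replication genes called against the majority in comparisons with ST2KO are named without values, except Dbf4 and Orc5. Further genes with values per library, such as Orc1 and E2f1, were picked after their values were seen. Lengths and exon overlaps are from GENCODE M21, promoter windows from RefSeq GRCm38.p6. Alternatives were DESeq2 size factors, upper quartile scaling, limma-voom, the Wald test of DESeq2 1.42.0, a filter of 5 CPM in at least 3 samples, no filter at all, thinning to the shallowest library, Rn45s left out of library sizes, only the 6 samples compared, a replicate block, each replicate left out and a tested minimum of 1.5-fold.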

Additional observations from a re-analysis of the deposited data

How the results depend on the processing

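Of 25 calls between ST2-high and ST2-low, 23 between ST2KO and ST2-low and 34 between ST2KO and ST2-high, 7, 5 and 4 were lost in at least 1 of 16 settings, and 1, 6 and 3 genes that did not pass were gained in some. Leaving out each replicate gave 20 to 24 rises and 0 falls, 4 to 5 rises and 16 to 19 falls, and 1 rise and 29 to 34 falls in the same order; the lowest values, 20 and 29, came without ST2-high replicate 2. Tested against a minimum of 1.5-fold, 3 genes rose in ST2-high against ST2-low, 1 rose and 6 fell in ST2KO against ST2-low, and 15 fell and 0 rose in ST2KO against ST2-high. Upper quartile scaling moved the median of all tested genes to 0.12 and 0.10 in the comparisons of ST2KO with ST2-low and ST2-high, and gave 2 rises in the second (Cdc7 and Pold1). With DESeq2 size factors 22 of the 41 fell and 4 rose in ST2KO against ST2-low. With the filter of 5 CPM in 3 samples, 1456 of all genes were higher and 1666 lower in ST2-high against ST2-low, in place of 1872 and 1317.

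The labels do not say whether the replicate numbers pair the samples. Deviations from group means correlated between -0.0626 and 0.0984 for libraries with the same number, and not every library correlated best with its own number. With 3 libraries in each group, these values cannot settle whether samples were paired. The replicate block gave 25 rises and 0 falls for ST2-high against ST2-low, 6 rises and 18 falls for ST2KO against ST2-low, and 1 rise and 33 falls for ST2KO against ST2-high.

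Log2 fold changes of genes that did not pass changed sign as follows, and the cause was not tested. In ST2-high against ST2-low, Orc6 was -0.0138 with DESeq2 size factors, -0.0137 with DESeq2's Wald test and -0.0195 with the 5 CPM filter; Cdt1 was -0.0165 in each of the first 2, -0.0223 with that filter and -0.00142 with upper quartile scaling; Ccne1 was -0.00359 with voom. In ST2KO against ST2-low, upper quartile scaling gave Pole 0.00367, Rrm2 0.0604 and Dut 0.0453, thinning gave Prim1 -0.0235 and Pole 0.037, and voom gave Rrm2 0.00431. In ST2KO against ST2-high, upper quartile scaling gave Rfc4 0.0219 and Rpa1 0.0179. With a replicate left out the ranges were -0.0587 to 0.0527 for Orc6, -0.00396 to 0.0161 for Cdt1, -0.043 to 0.161 for Cdc7, -0.0554 to 0.105 for Prim2, -0.039 to 0.131 for Rfc3, -0.0737 to 0.0114 for Rpa2 and -0.193 to 0.242 for Ccne1 in ST2-high against ST2-low; -0.194 to 0.0293 for Pole, -0.0992 to 0.0647 for Rrm2 and -0.0937 to 0.0736 for Dut in ST2KO against ST2-low; -0.0101 to 0.0939 for Rfc2, -0.17 to 0.0394 for Rfc4 and -0.0164 to 0.131 for E2f2 in ST2KO against ST2-high. Thinned to the shallowest library, the calls of Pold1 and Dut were lost in ST2-high against ST2-low, that of Tk1 in ST2KO against ST2-low and that of Pola2 in ST2KO against ST2-high, while Rrm1 and Mki67 passed in ST2KO against ST2-low.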
